A study of Mus musculus with 8 samples.

Results

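A set of 119 genes had, 3 h after intravenous PFSUV-IMQ, a mean level in HCA-1 liver tumors of at most 50% of that in control tumors. They were chosen from the 36670 genes of the deposited table of counts normalized by DESeq2, in which 14626 genes had a control mean of at least 20 normalized counts. A gene was taken when the mean of the 4 treated tumors was at most 50% of the mean of the 4 control tumors and the highest treated tumor lay below the lowest control tumor. These criteria were met by 136 genes, or 0.930% of the genes at or above the control floor, and 17 of them were set aside by their symbol. Of those, 6 were left out by name and 11 because the symbol starts with Gm, which leaves out the enzyme gene Gmpr along with predicted genes. The same criteria in the opposite direction were met by 451 genes (3.08%). The levels of both groups chose the genes, so the lower levels given here are a description and no test of them was made.

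The tumors grew from HCA-1, a mouse hepatocellular carcinoma line, implanted in the liver of male C3H mice. On day 17, 4 mice received a single dose of PFSUV-IMQ and 4 received saline, and all tumors were taken 3 h later. PFSUV-IMQ carried imiquimod, an agonist of Toll-like receptor 7 (TLR7), at 4 mg/kg in phospholipid-free small unilamellar vesicles. The sample labels give the age of the mice as 6 to 8 weeks and the study's methods as 4 to 6 weeks, and all tumors came from 1 cell line in 1 strain. The control tumors carry the replicate numbers 1, 3, 4 and 5 and the PFSUV-IMQ tumors the numbers 1, 2, 3 and 4, and values are listed in that order throughout. RNA of whole tumors was sequenced, so a lower level can mean fewer cells of a type or less RNA per cell, and these cannot be told apart. The control tumors had 16883911 to 27687756 counted reads and the PFSUV-IMQ tumors 17008151 to 18527613, at which 3 reads stand for 2.20 to 4.42 normalized counts.

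TLR7 senses single-stranded RNA in the endosomes of plasmacytoid dendritic cells, macrophages and B cells, and imiquimod activates it directly. The response begins with type I interferon and inflammatory cytokines, and genes of the resting state of macrophages and endothelium are known to be turned down while the induced genes rise. The level of an mRNA can fall only as fast as the existing transcripts are degraded, so a short interval after a stimulus favors genes whose mRNAs turn over quickly.

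The median member stood at 39.6% of its control mean, with quartiles at 32.3% and 45.2% and a range from 6.91% to 49.8%. The median of all genes at or above the floor was 96.4%. Of the 119 members, 16 stood at or below 25% of control. Most were of low or moderate level, with control means from 20.2 to 1970 normalized counts and a median of 83.1, beside 479.9 for all genes at or above the floor. The 3 members closest to the ratio limit were Rab37 and Ednrb, both at 49.8%, and Zfp78 at 49.7%, while Pcdh17 at 50.3% and Chd3os and Fam214a, both at 50.5%, lay just outside it. A further 188 genes met the ratio but had groups that overlapped, and 395 had separate groups but a ratio above the limit.

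Control tumor 4 stood apart from the other controls in these genes. It held the highest control value of 97 of the 119 members (81.5%), where it did so for 28.6% of all genes at or above the floor. Relative to the control mean, the median member stood at 80.6% in control tumor 1, 83.9% in control tumor 3, 145.0% in control tumor 4 and 81.0% in control tumor 5. The PFSUV-IMQ tumors stood at 46.5%, 41.1%, 32.3% and 34.0% in the order of their numbers, where the median of all genes was 92.9% to 96.7%. Tumors 3 and 4 after PFSUV-IMQ were thus the lowest for the typical member, and tumors 1 and 2 held the highest treated value for 48 and 44 of the 119. Without control tumor 4 the median member stood at 45.8% of control, and 79 of the 119 remained at or below 50%.

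**Figure D1:**
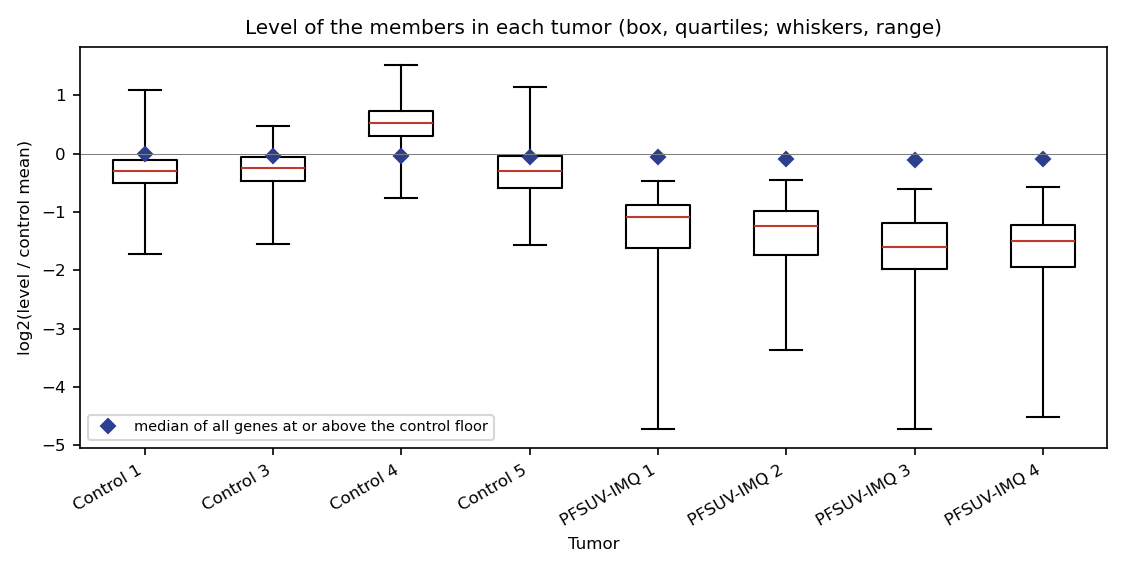
Level of the 119 genes in each tumor as log2 of the level over the control mean (vertical axis, 1 normalized count added to both), with boxes for the quartiles, whiskers for the range and diamonds for the median of all genes at or above the control floor. The box of control tumor 4 lies above those of the other control tumors, while the diamonds stay near 0 in all 8 tumors.

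Control tumor 4 and PFSUV-IMQ tumor 2 also had the most hepatocyte RNA. The summed level of 22 hepatocyte markers was 15491, 18978, 46562 and 6183 CPM in the control tumors and 10212, 54289, 14605 and 14500 CPM in the PFSUV-IMQ tumors (CPM, library sizes scaled by edgeR's TMM factors). When these hepatocyte-rich tumors were set against each other, the median member in PFSUV-IMQ tumor 2 stood at 29.2% of control tumor 4, and 111 of 119 were at or below 50%. Among the other 3 tumors of each group the median member stood at 45.6%, with 89 of 119 at or below 50%. The criteria put every treated tumor below every control tumor, so a lower level in both pairings was fixed by the choice, and control tumor 4, the highest control for most members, is one side of the first. The part of hepatocyte content in it was not tested.

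The criteria were also applied to 7 tumors and the genes so chosen were read in the tumor left out. The 4 tumors of the opposite group, with which the left-out tumor was compared, did choose these genes, so the shares are a description and are not set against those of all genes. With a PFSUV-IMQ tumor left out, the chosen genes lay below every control tumor for 74.4%, 41.6%, 96.4% and 94.8% of genes in tumors 1 to 4, and 41.7%, 31.4%, 82.1% and 78.3% stood at or below 50% of the control mean. With a control tumor left out, 81.9%, 90.3%, 94.7% and 60.6% of the chosen genes lay above every PFSUV-IMQ tumor in controls 1, 3, 4 and 5, and for 43.8%, 51.4%, 82.9% and 28.8% the PFSUV-IMQ mean was at or below 50% of that control. In 4 of the 8 left-out tumors, PFSUV-IMQ tumors 1 and 2 and controls 1 and 5, most of the chosen genes thus missed the 50% limit. PFSUV-IMQ tumor 2 and control tumor 5 were the tumors in which fewest of the chosen genes fell on the same side. The lists chosen without them were also the longest, at 296 and 208 genes.

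**Figure D2:**
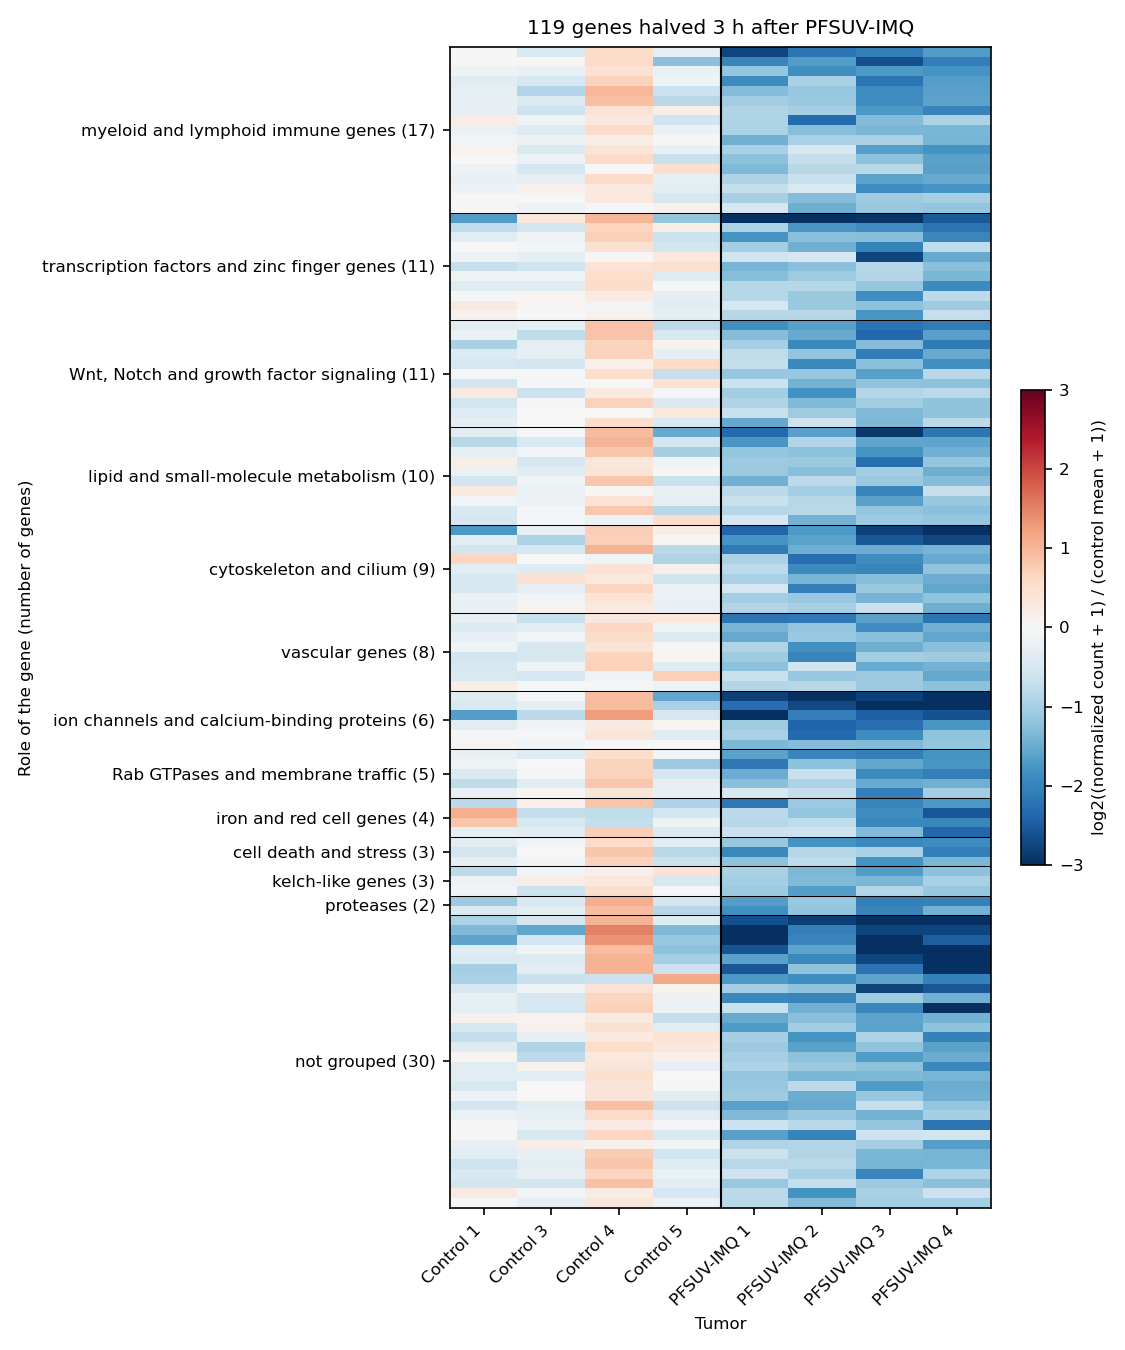
Heat map of the 119 members (rows, grouped by what their products do, with the number of genes in brackets) in the 8 tumors (columns), colored by log2 of the normalized count over the control mean with 1 added to both. All PFSUV-IMQ columns are blue, control 4 is the reddest control column, and ion channels and calcium-binding proteins hold some of the darkest rows.

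The members were sorted by the known function of their products, after their values had been seen. The largest named group held 17 genes of myeloid and lymphoid cells, at a median of 42.4% of control. It was followed by 11 transcription factor and zinc finger genes (44.1%), 11 genes of Wnt, Notch and growth factor signaling (44.4%), 10 of lipid and small-molecule metabolism (43.6%), 9 of the cytoskeleton and cilium (36.2%) and 8 vascular genes (40.5%). The lowest median, 23.0%, belonged to 6 genes for ion channels and calcium-binding proteins. Smaller groups held 5 genes of Rab GTPases and membrane traffic (36%), 4 of iron and red cells (39.1%), 3 of cell death and stress (37.8%), 3 kelch-like genes (43.9%) and 2 proteases (31.5%). The remaining 30 genes were not placed in any group. No single group thus held most of the set. The groups do not overlap, so a cell type shared by genes of different groups was not examined.

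In the edgeR quasi-likelihood fit over all 15998 tested genes, 32 genes (0.200%) were called lower, with a log2 fold change under -1 and a Benjamini-Hochberg adjusted p under 0.05, and 362 (2.26%) were called higher. Of the 115 members that passed its filter on low counts, 23 were among the genes called lower, and the other 4 members, among them Kcna2, Nr1h5 and Pkdrej, were not tested. The fit rests on the tumors that chose the members, so nothing is read from that count. The median log2 fold change of the tested members was -1.33, beside -0.03 for all tested genes. Of the 15998 tested genes, 8637 had a log2 fold change below 0 and 7361 above. At an unadjusted p under 0.05 in this fit, 744 of the 15998 were lower.

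The immune members included genes of resident macrophages. Gpr34, a receptor for lysophosphatidylserine on microglia and other macrophages, had 212, 216, 309 and 86.4 in the control tumors against 51.2, 63.3, 32.3 and 47.9 after PFSUV-IMQ (chrX:13632089-13640858). The PFSUV-IMQ mean was 23.6% of control, and the lowest control value was that of tumor 5. Vsig4, the complement receptor CRIg of Kupffer cells and other resident macrophages, had normalized counts of 279.7, 249, 578 and 326 in control and 96.8, 181, 77.3 and 114 in PFSUV-IMQ tumors. It stood at 32.7% of control, and control tumor 4 was far above the other controls. Hpgds, the hematopoietic prostaglandin D synthase, had 401, 379.7, 490.4 and 437 normalized counts in the control tumors and 157, 216, 218 and 163 in the PFSUV-IMQ tumors (chr6:65117293-65144908). Its groups were tight, at 427 ± 48.5 in control and 189 ± 33.1 in PFSUV-IMQ tumors (mean ± SD, n = 4), and its 44.2% of control changed little, to 46.5%, when control tumor 4 was left out.

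Tlr11, a Toll-like receptor for profilin of protozoan parasites, had 102, 75.6, 154 and 87.5 in the control tumors against 14.8, 22.1, 24.2 and 31.9 after PFSUV-IMQ (chr14:50357914-50363663). It was the lowest of the immune members, at 22.2% of control, and stood at 26.3% without control tumor 4. Nfam1, a membrane receptor that signals through an activation motif in immune cells, had normalized counts of 413, 361, 693 and 416 in control and 243, 193, 182 and 181 in PFSUV-IMQ tumors. Control tumor 4 was the high value, and without it Nfam1 stood at 50.3% of control, just outside the limit. Abcg3, an ATP-binding cassette transporter gene of rodents, had 198, 192, 298 and 192 normalized counts in the control tumors and 97.9, 60.3, 65.8 and 62.7 in the PFSUV-IMQ tumors. The other 3 controls lay close together and the mean was 32.6% of control.

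Cd300e, an activating receptor of monocytes, had 58.5, 52.9, 134 and 39.3 in the control tumors against 34.2, 32.4, 18.5 and 22.8 after PFSUV-IMQ. Control tumor 4 was more than 2 times any other control, and without it Cd300e stood at 53.7%. Cd5, a restraining co-receptor on T cells and some B cells, had normalized counts of 88.3, 60.2, 109 and 70.7 in control and 41.0, 57.4, 25.4 and 22.8 in PFSUV-IMQ tumors. PFSUV-IMQ tumor 2 came within 3 normalized counts of the lowest control, and without control tumor 4 the mean stood at 50.2% of control. The other immune members stood between 36% and 48.8% of control. They were Cd207 (36%), the langerin of Langerhans and some dendritic cells, Itgae (39.6%), the integrin chain CD103, Lilra5 (40.8%), Clec4a2 (44.8%), Abi3 (45.3%), Il16 (45.7%), Cass4 (46.6%), Fam105a (46.9%) and the inhibitory receptor Cd300a (48.8%).

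Markers of the cells that are known to carry these genes were read beside them, and since the members were chosen for their low ratio and the markers were not, the sizes of their changes are not compared. Of 16 macrophage and Kupffer cell markers tested, 13 had a log2 fold change below 0 and 3 above, with 1 called lower (Vsig4), and a median of -0.21 without Vsig4. At an unadjusted p under 0.05, 4 of the 16 were lower, Vsig4 among them, and 0 higher, and DESeq2 called 1 lower. The complement genes C1qa, C1qb and C1qc, which mark macrophages broadly, had log2 fold changes of -0.01, -0.05 and -0.01, while Cd163 had -1.02, Clec4f -0.96 and Csf1r -0.75. The list summed to 2205 to 3209 CPM in control and 1545 to 3062 CPM in PFSUV-IMQ tumors, so the groups overlapped. Of 19 homeostatic myeloid receptors tested, 13 were below 0 with 2 called lower, the members Gpr34 and Hpgds, and their median without these was -0.12. At an unadjusted p under 0.05, 6 of the 19 were lower, the members Gpr34 and Hpgds among them, and DESeq2 called 3 lower. Among the receptors that are not members, the log2 fold changes ran from -1.59 for Fcrls, -1.11 for Siglech and -0.94 for Gpr183 to 0.49 for Csf3r, and the list summed to 310.5 to 465.6 CPM in the control tumors against 270.0 to 429.9 CPM after PFSUV-IMQ. Of 13 T cell markers, none was called by edgeR. The 1 that was lower at an unadjusted p under 0.05 was the member Cd5, and DESeq2 called 1 lower. The median without Cd5 was -0.18, and the others ran from -0.58 for Cd6 to 0.48 for Cd8a. Of 11 monocyte markers tested, 6 were below 0 and 5 above. At an unadjusted p under 0.05, 3 of the 11 were lower and 3 higher, and DESeq2 called 3 lower and 1 higher. Cx3cr1, the fractalkine receptor that was set aside by name from the members, was called lower by edgeR at -2.81, and Ccr2, the receptor that draws monocytes out of the marrow, had -1.23, whereas Ly6c2 had 1.88 and Plac8 1.17. The monocyte list summed to 231 to 381 CPM in the control tumors and 211 to 456 CPM after PFSUV-IMQ. Of 12 dendritic cell markers tested, 8 were below 0, and edgeR called none (3 lower at an unadjusted p under 0.05, and 1 called lower by DESeq2). They ran from -1.58 for Cd209a, -1.14 for Flt3 and -1.11 for Siglech to 0.34 for Ccr7, and summed to 169.8 to 252 CPM in the control tumors and 137 to 276 CPM after PFSUV-IMQ. The part of cell number in the lower level of the immune members was not tested.

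**Figure D3:**
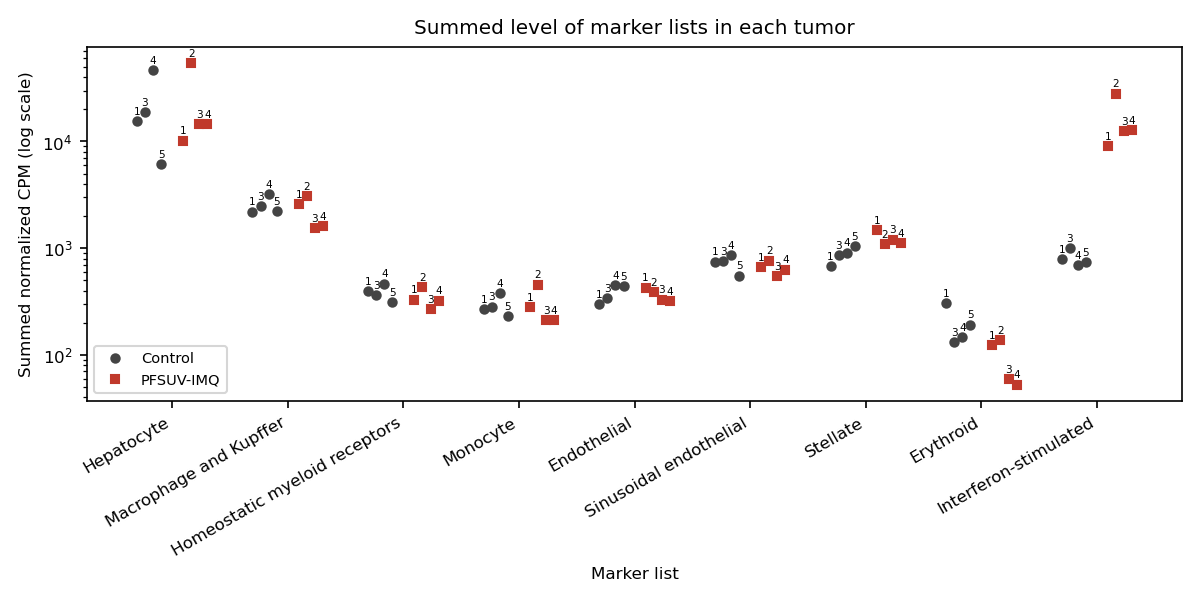
Summed level of 9 marker lists in each tumor (vertical axis, normalized CPM on a log scale; circles, control; squares, PFSUV-IMQ; small numbers, replicate numbers). The groups overlap in the hepatocyte, macrophage, myeloid receptor, monocyte, endothelial and sinusoidal endothelial lists, and narrowly in the erythroid list. They are far apart in the interferon-stimulated list. In the stellate list the PFSUV-IMQ tumors (1088 to 1470 CPM) lie above the control tumors (684 to 1044 CPM), although 10 of its 12 genes had a log2 fold change below 0.

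Promoter sequences of the members were searched for the motifs of 15 factors and elements, among them PU.1 (Spi1), the factor that sets up gene expression in macrophages. RefSeq windows of 300 bases, 250 before and 50 after the start of a transcript, were given for 88 of the 119 members on GRCm38.p6. All motifs were searched on both strands, and PU.1 was chosen for display after the shares were known. Its letters GAGGAAGT stood in the windows of 10 of 88 members, or 11.4% (95% Wilson interval 6.29% to 19.7%, for counting error only), beside 3.69% of the 27025 genes with a window and 3.88% of those at or above the control floor. They share their last 6 letters with the ETS motif searched, CCGGAAGT. That ETS motif was less frequent in members, at 2.27%, beside 4.31% of all promoters and 8.54% of those at or above the floor. Of the 13 immune members whose window carries the same symbol, 4 held it. The window of the immune member Fam105a, listed under the symbol Otulinl, did not. The sites of the 10 members are shown, and their letters are the same because those letters were searched. The capitals mark the match, and each line is read on the strand that holds it.
Abcg3 (chr5:104982691-104982720): cgaagagagcaGAGGAAGTagcaggcagtg
Btnl9 (chr11:49187220-49187249): tagaacaaaacGAGGAAGTctccgtcatat
Cbfa2t3 (chr8:122699328-122699357): aggcgggatagGAGGAAGTtgttgggaagt
Cd5 (chr19:10739009-10739038): ggtttcacaggGAGGAAGTtgacagttcaa
Crmp1 (chr5:37245514-37245539): cctgtgcttggGAGGAAGTgggagcc
D130017N08Rik (chr5:143758216-143758245): cccctccccggGAGGAAGTtacacattggc
Hpgds (chr6:65144761-65144790): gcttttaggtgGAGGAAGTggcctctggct
Klhl23 (chr2:69821933-69821962): ttggtcctgaaGAGGAAGTgggggtagaaa
Tlr11 (chr14:50357770-50357799): gtactaggaaaGAGGAAGTcatgaaactga
Veph1 (chr3:66296866-66296895): gtaagtctacaGAGGAAGTcagggacccgg
The match lay before the start of the transcript in 8 genes and just after it in 2, Abcg3 and Klhl23. Those of Hpgds, Veph1 and Cd5 began 49, 47 and 53 bases before the start, and those of Tlr11 and Cbfa2t3 began 133 and 237 bases before it.

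The 250 bases before the start are given for 2 members in which they reach up to the annotated gene, the receptor Tlr11 (chr14:50357664-50357913, plus strand) and the corepressor Cbfa2t3 (chr8:122699110-122699359, minus strand), with the PU.1 match in capitals.
Tlr11: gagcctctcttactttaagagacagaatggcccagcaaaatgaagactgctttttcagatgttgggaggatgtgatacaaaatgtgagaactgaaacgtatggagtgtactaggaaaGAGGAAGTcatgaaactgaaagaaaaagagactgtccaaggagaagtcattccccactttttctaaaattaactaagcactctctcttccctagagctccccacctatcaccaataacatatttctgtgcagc
Cbfa2t3: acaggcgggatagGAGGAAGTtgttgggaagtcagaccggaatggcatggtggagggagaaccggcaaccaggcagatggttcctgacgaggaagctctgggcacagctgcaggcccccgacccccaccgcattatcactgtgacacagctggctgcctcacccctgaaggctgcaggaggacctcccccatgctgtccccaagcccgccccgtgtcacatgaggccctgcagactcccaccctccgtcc
The Tlr11 stretch is 41.2% GC with 1 CpG, and the Cbfa2t3 stretch is 64.0% GC with 9. Over the whole windows the members had a median of 10 CpG, beside 7 for all promoters and 19 for promoters of genes at or above the control floor. The interferon-stimulated response element stood in 1 member window, that of Tlr11 (1.14%), beside 3.99% of all promoters and 3.96% of those at or above the floor. The E-box CACGTG was in 3.41% of members, 8.09% of all promoters and 11.3% of those at or above the floor. The GC box GGGCGG was in 46.6% of members, above the 38.2% of all promoters and below the 65.6% of those at or above the floor. The RBPJ motif GTGGGAA of the Notch pathway was in 11.4%, 7.25% and 7.37%. No member window held the letters searched for CEBP (TTGCGCAA) or the D-box (TTATGTAA), which 0.207% and 1.11% of all promoter genes hold, and 0.341% and 0.719% of those at or above the floor. A match is a description of the letters and not of binding.

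**Figure D4:**
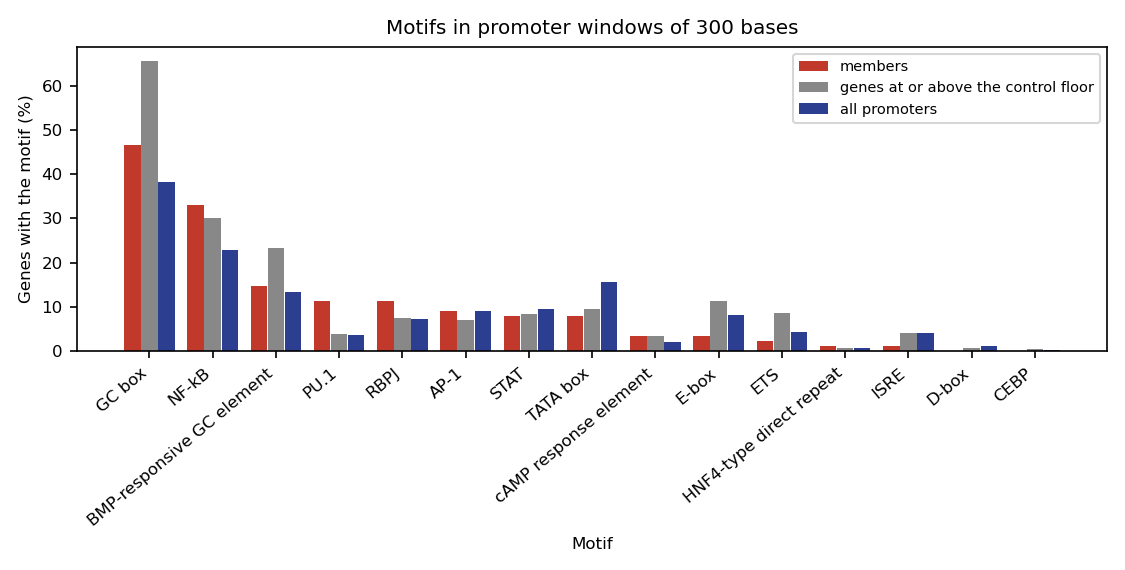
Share of genes whose promoter windows hold each of 15 motifs on either strand (vertical axis, percent), for the members, for genes at or above the control floor and for all promoters. The members' bar is about 3 times the other bars for PU.1 and lies between them for the GC box.

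Iron and red cell genes included 2 of the 5 members with the highest control mean, in counts that are not scaled by gene length. Slc40a1, ferroportin, which exports iron from macrophages and hepatocytes, had 815, 1552, 2512 and 738 normalized counts in the control tumors and 317, 656, 348 and 423 in the PFSUV-IMQ tumors (chr1:45908068-45926523). Its control tumors spread by more than 3 times, from tumor 5 to tumor 4, and the PFSUV-IMQ mean was 31.1% of control. The adult beta-globin genes Hbb-bs and Hbb-bt lie next to each other on chromosome 7 and are expressed in red cell precursors. Hbb-bs had 3369, 1372, 1161 and 1704 in the control tumors against 1074, 1119, 499.5 and 491 after PFSUV-IMQ, with the high control in tumor 1 and little space between control tumor 4 and PFSUV-IMQ tumor 2. Hbb-bt had normalized counts of 482, 137, 133 and 151 in control and 129.8, 98.6, 61.1 and 37.6 in PFSUV-IMQ tumors, again highest in control tumor 1. More than 50% of the sequence of each is shared with another globin gene, at 65.8% of its 50-base words for Hbb-bs and 58.3% for Hbb-bt, so their counts are not independent. Of the 4 red cell markers tested, 2 are these members, so the list's sum follows them. The other 2 were below 0, Hba-a1, a globin of the alpha type, with a log2 fold change of -1.0 (mean of 76.3 CPM in control and 38.3 CPM in PFSUV-IMQ tumors) and Alas2, the heme synthesis enzyme of red cells, with -0.34 ± 0.72 (SE). Of the 4, edgeR and DESeq2 called none, with 3 at an unadjusted p under 0.05, the 2 members among them. The part of blood content in the globin genes was not tested. Art4, the Dombrock blood group gene, stood at 45.8% of control.

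The 8 vascular members included receptors and membrane proteins of endothelium. Btnl9, a butyrophilin-like gene, had 90.2, 66.8, 137 and 135 normalized counts in the control tumors and 22.8, 23.6, 34.6 and 22.8 in the PFSUV-IMQ tumors. It stood at 24.2% of control, and the lowest control was nearly 2 times the highest treated tumor. Clec14a, an endothelial lectin that takes part in vessel growth, had 153, 173, 266 and 138 in the control tumors against 63.8, 83.9, 76.1 and 61.6 after PFSUV-IMQ (chr12:58264720-58269290). Control tumor 4 was the high value and the mean was 39.1% of control. Tmem204, a membrane protein of endothelial junctions, had normalized counts of 87.3, 93.3, 177 and 104 in control and 43.3, 51.5, 31.1 and 42.2 in PFSUV-IMQ tumors. Its 36.4% of control became 44.3% without control tumor 4.

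Ednrb, the endothelin B receptor, had 398, 336, 339 and 313 normalized counts in the control tumors and 189, 193, 163 and 146 in the PFSUV-IMQ tumors. It was the tightest vascular member, at 346 ± 36.1 in control and 173 ± 22.3 in PFSUV-IMQ tumors (mean ± SD, n = 4), and control tumor 4 was not its high value. The others were Pcdh12 (39.2%), an endothelial cadherin-like gene, Exoc3l2 (41.8%), Cd300lg (44.6%) and the phosphatase Ptp4a3 (47.4%). Of 19 general endothelial markers tested, edgeR and DESeq2 called none, with 2 lower and 1 higher at an unadjusted p under 0.05, 15 were below 0 and the median log2 fold change was -0.16. They ran from -0.82 for Ptprb, -0.66 for Tek, -0.63 for Kdr and -0.61 for Emcn to 0.43 for Flt1, with Cdh5 at -0.05 and Pecam1 at -0.16. Of 13 sinusoidal endothelial markers, both tools called none, with 0 at an unadjusted p under 0.05, 10 were below 0 and the median was -0.38, led by Stab2 at -0.83 and Gpr182 at -0.73. The endothelial list summed to 297.8 to 453.6 CPM in the control tumors and 321.5 to 426.9 CPM after PFSUV-IMQ, and its part in the lower level of the vascular members was not tested.

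Potassium channel genes supplied the lowest and the tightest of the members. Kcna2, a voltage-gated channel of neurons, had 16.9, 21.3, 42.8 and 6.73 in the control tumors against 2.28, 1.47, 2.31 and 0 after PFSUV-IMQ. The PFSUV-IMQ tumors held 2, 1, 2 and 0 reads, so that the 6.61% of control from the summed reads has an exact 95% interval of 2.1% to 15.9% for counting error. Kcnj10, the inward rectifier Kir4.1, had normalized counts of 134, 156, 202 and 174 in control and 78.6, 30.9, 33.5 and 49.0 in PFSUV-IMQ tumors, with PFSUV-IMQ tumor 1 above the other treated tumors. Kcnk13, a pore-forming channel of microglia, had 39.7, 39.7, 53.2 and 31.4 normalized counts in the control tumors and 20.5, 7.36, 10.4 and 17.1 in the PFSUV-IMQ tumors, at 33.8% of control.

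Kcne3, an accessory subunit that tunes voltage-gated potassium channels, had 315, 273, 294 and 299.5 in the control tumors against 116, 119, 118 and 129 after PFSUV-IMQ (chr7:100176502-100184869). The SD of each group was below 6% of its mean, at 296 ± 17.4 in control and 120.5 ± 5.72 in PFSUV-IMQ tumors (mean ± SD, n = 4), and its level was 40.8% of control with control tumor 4 and 40.7% without it. Of 78 ion channel genes tested, 36 were above 0 and 42 below, with 3 called higher and 2 called lower, the members Kcnj10 and Kcne3, and a median log2 fold change of -0.07. The channel family as a whole thus stood near 0.

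Chp2 and Cib3 encode small calcium-binding proteins. Chp2, a calcineurin B homologous protein, had normalized counts of 59.5, 67.6, 159.7 and 41.5 in control and 15.9, 11.8, 3.46 and 4.56 in PFSUV-IMQ tumors (chr7:122219496-122222824). It stood at 10.9% of control, at 15.9% without control tumor 4, and PFSUV-IMQ tumors 3 and 4 were the lowest. Cib3, a calcium and integrin binding protein, had 119, 217, 899.6 and 266 normalized counts in the control tumors and 41.0, 88.3, 68.1 and 60.4 in the PFSUV-IMQ tumors. Control tumor 4 was more than 3 times any other control, and its 17.2% of control became 32.1% without it.

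The 11 transcription factor and zinc finger genes included Nr1h5, Sox12 (31.5% of control) and Tcf21 (33.9%) below the median of all members and ran up to Zfp78 at 49.7%. Nr1h5, the nuclear receptor FXR-beta, had 6.94, 30.8, 49.7 and 10.1 in the control tumors against 2.28, 1.47, 2.31 and 3.42 after PFSUV-IMQ, and every PFSUV-IMQ tumor was at 3 reads or fewer. From the summed reads it stood at 9.29% of control, with an exact 95% interval of 3.92% to 18.9% for counting error. Sox12, a factor of the SoxC group, had normalized counts of 38.7, 45.5, 106 and 77.4 in control and 34.2, 19.1, 17.3 and 13.7 in PFSUV-IMQ tumors, with control tumor 4 highest and PFSUV-IMQ tumor 1 just below the lowest control. Lyl1, a basic helix-loop-helix factor of blood and endothelial cells, had 194, 195, 366 and 242 normalized counts in the control tumors and 137, 138, 111 and 66.1 in the PFSUV-IMQ tumors. PFSUV-IMQ tumor 4 was the lowest, and without control tumor 4 Lyl1 stood at 53.6% of control.

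Zinc finger genes contributed 6 members, Zfp791, Zfp423, Zfp704, Zfp108, Zfp521 and Zfp78. Zfp791 had 21.8, 20.6, 30.5 and 14.6 in the control tumors against 10.2, 7.36, 4.61 and 12.5 after PFSUV-IMQ, all low values. Zfp423, a multi-finger factor of fat precursor cells and BMP signaling, had normalized counts of 18.8, 17.6, 21.8 and 26.9 in control and 13.7, 14.7, 2.31 and 6.84 in PFSUV-IMQ tumors, and its treated tumors 1 and 2 came within 4 normalized counts of the lowest control. Zfp704 had 136, 138, 219.9 and 116 normalized counts in the control tumors and 62.6, 72.1, 81.9 and 58.1 in the PFSUV-IMQ tumors, and its treated tumors were close together. Over all 15998 tested genes, 8637 were below 0 and 7361 above. Of 429 zinc finger genes tested, 302 were below 0 and 127 above, at a median log2 fold change of -0.14. By edgeR, 5 were called higher and 0 lower, and DESeq2 called 1 lower. At an unadjusted p under 0.05, 32 of the 429 were lower, the 6 members among them, beside 744 of all 15998 tested genes. Tcf21, a factor of stellate cells and fibroblasts, and the corepressor Cbfa2t3 (44.1%) completed the group.

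Members of Wnt, Notch and growth factor signaling acted at different levels of these pathways. Nkd1, a Wnt target whose product binds Dishevelled and dampens the pathway, had 60.5, 40.4, 127 and 49.4 in the control tumors against 27.3, 23.6, 12.7 and 21.7 after PFSUV-IMQ. It stood at 30.8% of control, with control tumor 4 at more than 2 times any other control. Mfng, a fringe glycosyltransferase that modifies Notch receptors, had normalized counts of 76.4, 99.1, 98.6 and 123 in control and 62.6, 47.1, 39.2 and 42.2 in PFSUV-IMQ tumors. It was even across the controls, at 48.1% of control with tumor 4 and 48.0% without it. Rtn4rl1, a homolog of the Nogo receptor, had 95.2, 99.9, 221 and 69.6 normalized counts in the control tumors and 33.0, 38.3, 25.4 and 27.4 in the PFSUV-IMQ tumors, at 25.6% of control.

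The remaining signaling members were Pth1r (34.4%), the parathyroid hormone receptor, Pygo1 (38.2%), a coactivator of beta-catenin, the cadherin Dchs1 (38.3%), Aph1b (44.4%), a subunit of gamma-secretase, Ephb3 (44.6%), Ctnnd2 (45.8%), Spry1 (45.9%), an inhibitor of receptor tyrosine kinases, and Frat1 (48.1%). Of 24 Wnt pathway genes tested, 16 were below 0 and 8 above, at a median log2 fold change of -0.15. Of these edgeR called none (4 lower at an unadjusted p under 0.05, the member Nkd1 among them) and DESeq2 called 1 lower. Axin2, a common Wnt target, had -0.40 and Lgr5 -0.18. Of 16 Notch pathway genes, 10 were below 0 and 6 above, with 1 called higher, and the median log2 fold change without Mfng was -0.04. At an unadjusted p under 0.05, 1 was higher and 1 lower, the member Mfng. Among those below 0, Dll4, Heyl and Hey1 had -0.61, -0.60 and -0.41. Aph1b shares 18.0% of its 50-base words with Aph1c, which makes its own count less certain.

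Metabolic members included Insig1, the member with the highest control mean in counts not scaled by length. Its product, which holds the SREBP complex in the endoplasmic reticulum, is itself made from an SREBP target gene, and Insig1 had 1602, 1859, 3428 and 991 in the control tumors against 877, 833, 580.3 and 721 after PFSUV-IMQ (chr5:28071363-28078662). Control tumor 4 was the high value and the mean of 38.2% became 50.7% without it. Of 21 cholesterol and lipid synthesis genes tested, 18 were below 0 and 3 above, with a median log2 fold change of -0.33 and Idi1 at -0.92. Of these edgeR called none (3 lower at an unadjusted p under 0.05, the member Insig1 among them) and DESeq2 called 1 lower. That list summed highest in control tumor 4 (5919 CPM) and PFSUV-IMQ tumor 2 (5808 CPM), the hepatocyte-rich tumors, beside 1416 to 2868 CPM in the other controls and 1603 to 1947 CPM in the other treated tumors.

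Slc25a42, a mitochondrial carrier of coenzyme A, had normalized counts of 138, 179.9, 498 and 167 in control and 72.9, 134, 81.9 and 80.9 in PFSUV-IMQ tumors. Without control tumor 4 it stood at 57.2% of control, outside the limit. Abcd2, a peroxisomal transporter of very long chain fatty acids, had 113, 137, 271 and 49.4 normalized counts in the control tumors and 27.3, 45.6, 18.5 and 30.8 in the PFSUV-IMQ tumors, at 21.4% of control. The others were Mest (39.3%), Engase (42.1%), Hdhd3 (45.2%), Thtpa (47.8%), Nmnat3 (48.3%), the desaturase-like gene Fads6 (49.3%) and G0s2 (49.5%), an inhibitor of the lipase ATGL. Solute carriers as a family stood at a median log2 fold change of -0.02 over 254 tested genes.

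Without control tumor 4, 3 of the 5 membrane traffic members and 6 of the 9 cytoskeleton members stayed at or below 50% of control. Rab3il1, an exchange factor of Rab GTPases, had 493, 438, 832 and 546 in the control tumors against 190.2, 149, 136 and 166 after PFSUV-IMQ (chr19:10001669-10038380). It stood at 27.8% of control and was lower than 50% of the lowest control in every treated tumor. Sept3, a septin of the cytoskeleton that the deposited table lists as a date, had normalized counts of 185, 119.7, 381 and 242 in control and 67.2, 75.1, 39.2 and 34.2 in PFSUV-IMQ tumors, at 23.2% of control. Arhgap19, which turns off the GTPase RhoA, had 345, 370.1, 532 and 344 normalized counts in the control tumors and 192, 179.6, 151 and 172 in the PFSUV-IMQ tumors, at 43.7% of control and 49.2% without control tumor 4.

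Bmf, a BH3-only protein that promotes apoptosis, had 184, 217, 346 and 183 in the control tumors against 105, 66.2, 60.0 and 62.7 after PFSUV-IMQ (chr2:118528757-118549687). PFSUV-IMQ tumor 1 was the highest treated tumor and the mean was 31.6% of control. Bik, another BH3-only gene, stood at 37.8% and the stress gene Sesn1 at 42.3%. Without control tumor 4 Bik stood at 51.1% and Sesn1 at 53.0%, outside the limit. Rgs7bp, which anchors regulators of G protein signaling to the membrane, had normalized counts of 45.6, 31.6, 68.9 and 32.5 in control and 13.7, 10.3, 28.8 and 29.6 in PFSUV-IMQ tumors, and its treated tumors 3 and 4 came within 3 normalized counts of the lowest control.

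**Figure D5:**
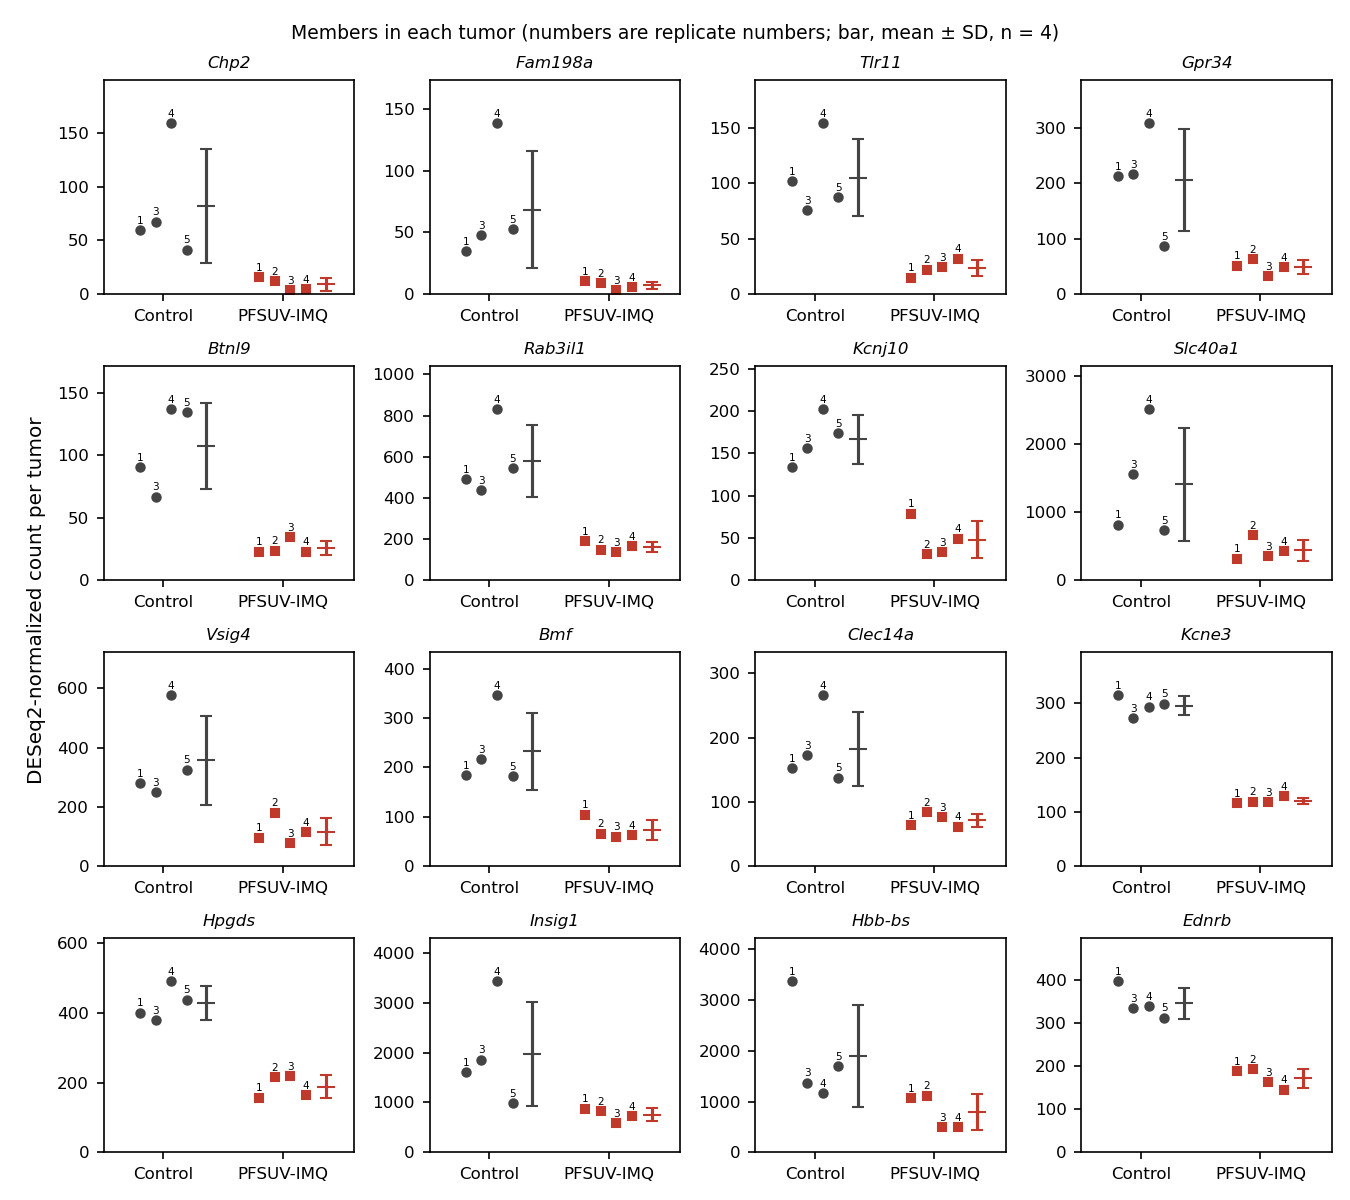
Normalized counts of 16 members in each tumor (vertical axes start at 0; circles, control; squares, PFSUV-IMQ; small numbers, replicate numbers; bars at the side, mean ± SD, n = 4). Kcne3, Hpgds and Ednrb form tight groups, whereas control tumor 4 is the highest control for Chp2, Fam198a, Slc40a1 and Insig1 and control tumor 1 for Hbb-bs.

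Among genes of less known function, Fam198a, a kinase-like protein of the Golgi, had 34.7, 47.7, 139 and 52.7 normalized counts in the control tumors and 10.2, 8.83, 3.46 and 5.70 in the PFSUV-IMQ tumors (chr9:121950988-121980209). It stood at 10.3% of control and at 15.7% without control tumor 4, and its edgeR log2 fold change of -3.27 ± 0.56 (SE) was the lowest of the called members. Hunk, a protein kinase, had 26.8, 27.2, 75.04 and 17.9 in the control tumors against 11.4, 8.83, 4.61 and 1.14 after PFSUV-IMQ, at 17.7% of control. Pkdrej, a polycystin relative of sperm, had normalized counts of 7.93, 6.61, 62.8 and 7.85 in control and 0, 4.42, 2.31 and 2.28 in PFSUV-IMQ tumors. Its control mean rests on tumor 4, since the other controls stood between 6.61 and 7.93, and without that tumor its control mean lies under the floor.

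The RIKEN gene 2610528J11Rik, of no known function, had 35.7, 41.9, 88.1 and 19.1 normalized counts in the control tumors and 6.83, 14.7, 1.15 and 3.42 in the PFSUV-IMQ tumors. The 10 reads of PFSUV-IMQ tumor 2 were the most among the treated tumors, and the mean was 14.1% of control. AC132455.2, which has no symbol in the deposited table, stood at 11.1% of control on 19 reads over the treated tumors. Of the members, 112 (94.1%) were protein coding, beside 89.9% of genes at or above the floor, and 4 were long intergenic noncoding RNAs. Further low members were Veph1 (19.3%), Wscd1 (27.2%), Vstm4 (29.6%), the zinc metalloprotease Mmp15 (31.2%), Tbc1d30 (31.2%), a GTPase-activating protein of Rabs, and the serine protease Prss8 (31.8%).

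Gene structure was compared, and the AU-rich elements that mark many unstable mRNAs, while mRNA half-lives were not measured. The members' median gene length was 20931 bases beside 21285 for all genes at or above the floor, their median transcript length 3207 beside 3204, and their median exon number 5 beside 7. Most members are of low level, though 31 of the 119 had a control mean of 200 or more. The 4540 genes with a control mean from 20 to under 200 normalized counts had medians of 13609 bases, 2646 bases and 4 exons, below those of all members. The 3′ UTR of the longest transcript had a median of 1494 bases beside 1340, and the AU-rich pentamer ATTTA occurred at a median of 1.08 per kb beside 1.22. The AU-rich heptamer TATTTAT stood in the 3′ UTR of 27.7% of the 112 members that have one, beside 30%. In the genes with a control mean from 20 to under 200, ATTTA stood at 1.12 per kb and TATTTAT in 27.3%. The members' transcripts were slightly richer in GC, at a median of 51.7% beside 49.3% for all genes at or above the floor.

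The members lay on 20 chromosomes, with few neighbors among them. Of 237 next measured genes on either side, 8 (3.38%) met the same criteria, beside 0.930% of all genes at or above the floor. These made up 4 adjacent pairs, Hbb-bt and Hbb-bs on chromosome 7, Cd300e and Rab37 on chromosome 11, Kif26a and A530016L24Rik on chromosome 12, and Arhgap19 and Frat1 on chromosome 19. On chromosome 11, Cd300a (chr11:114890041-114904654), Cd300e, Rab37 and Fads6 (chr11:115279622-115297663) lay in 1 stretch, with 186777 bases between Cd300a and Rab37. The neighbors that were not members stood at a median of 91.0% of control. For 10 members more than 10% of exon bases overlapped exons of another gene, as in Abi3 (75.8%, mostly with Zfp652 on the opposite strand) and Thtpa (56.8%, with Gm20687 on the same strand), so their counts are less certain.

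As a check of the treatment, all 20 interferon-stimulated genes examined were called higher in the same fit, with a median log2 fold change of 4.48, and none is a member. Of 29 immediate early genes 28 were above 0, at a median of 0.71 with 1 called higher. Of 22 hepatocyte markers 15 were above 0, at a median of 0.28, and edgeR and DESeq2 called none, with 1 higher at an unadjusted p under 0.05. Lists without a member included the circadian clock, in which 11 of 19 genes were below 0 at a median of -0.05, and 37 nuclear receptor genes other than Nr1h5, of which 20 were below 0 at a median of -0.01. Of all 15998 tested genes, 8637 were below 0.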

How the data were processed

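RNA-seq of 8 HCA-1 tumors was used, 4 per group by the sample labels. The authors deposited raw counts of reads per gene, and a second table of signal values in which the authors scaled the counts with DESeq2 size factors. The study's methods name TopHat and HTSeq, whereas the submitters' processing notes name Trimmomatic 0.38, HISAT2 2.1.0 and featureCounts 2.0.0. The genome build is not given in the sources used here. Gene identifiers are those of GENCODE M21 (GRCm38), from which gene positions were taken. In the normalized table, from which the members were chosen, 25 symbols read as dates.

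Counts were fitted over all genes in R 4.3.3 with edgeR 4.0.16 (TMM, its default filter, quasi-likelihood test, Benjamini-Hochberg adjustment), with DESeq2 1.42.0 as an alternative. Calls needed a log2 fold change beyond 1 in either direction at an adjusted p under 0.05. Tested on simulated data of 15998 genes for this comparison, the fit recovered 154 of 200 genes changed 4-fold (77%). The p-values measure the spread between the tumors of a group, and intervals and floors reflect counting error only. Tumors of a group correlated at 0.912 to 0.984 in log2 CPM and differed by more than sampling noise.

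The members, gene lists, roles and motifs were chosen with earlier results of these data known. Genes were named by a rule (lowest ratio, a place in a list, an edgeR call, highest control mean, or closeness to the ratio limit). Members named only by their role, and markers given as examples, were chosen after their values were seen. Alternatives were other normalizations, floors, ratio limits and tests, a term for the replicate number, each tumor left out, and, chosen after seeing the data, both hepatocyte-rich tumors left out. Values of some genes are not reported here.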

Additional observations from a re-analysis of the deposited data

Results flagged for a closer look

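Within each group of 4 tumors, the highest or lowest value was compared with its nearest neighbor, relative to the range of the group. About 1 group in 20 is expected to stand out this way by chance. Of 84 groups of values over the 42 genes given per tumor, 11 stood out, 6 of them through control tumor 4. For the typical member, control tumor 4 stood at 145.0% of the control mean, far from the other controls.

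Control tumor 4 stood apart as the highest control for Nfam1 (693 normalized counts), Abcg3 (298), Slc25a42 (498), Arhgap19 (532), Pkdrej (62.8) and Hunk (75.04). Control tumor 1 stood apart as the highest for Hbb-bt (482). Among the PFSUV-IMQ tumors, tumor 1 was far above the others for Abcg3 (97.9) and Bmf (105), tumor 2 for Slc25a42 (134) and tumor 3 for Btnl9 (34.6).

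Of the marker lists, PFSUV-IMQ tumor 2 stood apart as the highest treated tumor in hepatocyte markers (54289 CPM summed), neutrophil markers (171 CPM), NK cell markers (152 CPM) and B cell markers (336 CPM). Control tumor 4 was far below the other controls in cholangiocyte markers (2056 CPM).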

How the results depend on the processing

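The criteria chose 119 genes, and 210 with scaling by total counts, 64 at a ratio limit of 0.4, 208 at a limit of 0.6 and 184 without both hepatocyte-rich tumors, 79 of which were members. Leaving out 1 tumor gave 76 to 296 genes, with 76 without control tumor 4 (69 of them members), 208 without control tumor 5, 180 without PFSUV-IMQ tumor 1 and 296 without PFSUV-IMQ tumor 2. Scaling by TMM chose 114 genes, all of them members.

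Over all genes, 32 were called lower, beside 63 with no filter on low counts and 133 with DESeq2's Wald test. Leaving out 1 tumor gave 8 to 38, with 16, 13 and 15 without control tumors 1, 3 and 4 and 10 and 8 without PFSUV-IMQ tumors 3 and 4. Among members the count was 23, beside 43 with no filter and 86 with DESeq2, and 7 to 25 with 1 tumor left out, at 11, 10 and 11 without control tumors 1, 3 and 4 and 15, 8 and 7 without PFSUV-IMQ tumors 1, 3 and 4. Of the 23 called members, 7 were called in all 8 fits with 1 tumor left out and 14 in 4 or fewer. Vsig4 was called in 1 of the 8, Gpr34 and Kcnj10 in 2, Fam198a in 7, and Kcne3 and Hpgds in all 8. The cause of these differences was not tested.

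Both groups use the replicate numbers 1, 3 and 4, but deviations of same-numbered tumors from their group means correlated at 0.29, -0.27 and -0.32, so the tumors share only a number. The numbers 2 and 5 each occur in 1 group only, so with a replicate block the comparison rests on the numbers 1, 3 and 4. With that block 267 genes were called lower over all genes and 33 among members, at a median log2 fold change of -1.36 for the members. That median was -1.33 in the reported fit, -1.41 to -1.10 with 1 tumor left out and -1.12 without both hepatocyte-rich tumors. Upper-quartile scaling moved the median of all genes to -0.10 and that of the members to -1.40. The criteria fix the direction of the members under these alternatives, so it is no sign of stability. For the genes given per tumor, 66 values under the alternatives lost the call and 44 gained it.

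When the median over transcripts was used, the share with TATTTAT was 21.4% in members and 22.0% in genes at or above the floor. When only the first window of each gene was read, the PU.1 letters stood in 10.2% of members and 3.28% of all promoters. At these depths 3 members had 3 reads or fewer in every PFSUV-IMQ tumor, so their ratios are the least certain.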
